A study of Mus musculus with 6 samples.

Results

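The aryl hydrocarbon receptor pathway was described through 7 genes of the deposited mouse table, chosen by name: the receptor Ahr, its partner Arnt, its repressor Ahrr, and the target genes Cyp1a1, Cyp1b1, Aldh3a1 and Tiparp. All 7 were found among the 30777 genes of the table, and the counts of 6 sufficed for a test. The RNA came from whole colon tissue of BALB/c mice, an inbred laboratory strain. One group of 3 libraries received 5-fluorouracil (5-Fu), a chemotherapy drug that blocks the making of thymidylate. The other 3 received the same drug with berberine (5-Fu+BBR), an alkaloid of Berberis and Coptis plants. The drug was thus common to both groups. The labels give no dose, time or age, and no mice without 5-fluorouracil were analysed here. Whether each library stands for its own mouse is not stated, and the p-values then reflect only how far these libraries differ, which may be technical.

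The aryl hydrocarbon receptor is a transcription factor that rests in the cytoplasm with chaperones until it binds a ligand, such as dioxin, a plant indole or a bacterial or host product of tryptophan. It then enters the nucleus, pairs with ARNT and binds DNA elements with the core GCGTG. Its induced genes include the cytochrome P450 enzymes that break ligands down, and Ahrr and Tiparp, which dampen the receptor in turn. In the gut it is known for keeping innate lymphocytes, intraepithelial lymphocytes and the epithelial barrier intact. BALB/c mice carry a different Ahr allele from C57BL/6J, the strain of the reference genome.

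The deposited counts summed to between 53824752 and 63831168 per library. They were estimated from coverage, and 1 sequenced fragment was worth about 4 counts. Levels are given as FPKM, which is scaled to transcript length and library depth, so that genes can be compared. Fold changes come from the counts and are on the log2 scale, 5-Fu+BBR minus 5-Fu, ± SE. Whether groups overlap is judged on CPM (counts relative to the library total), and where FPKM differs this is said. All 12 epithelial markers examined were detected, among them the intestinal factor Cdx2 and the colonocyte genes Car1 and Aqp8, as the label of the tissue requires. The 5-Fu+BBR replicates 2 and 3 stood apart in kidney transcripts, with 8 kidney markers summing to 163 and 152 FPKM against 17.2 to 21.9 FPKM in the other 4 libraries. For Ahrr and Aldh3a1 the fold change with 5-Fu+BBR replicate 1 alone is given as well.

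The receptor and its partner differed little between the groups, whereas the repressor Ahrr and the aldehyde dehydrogenase gene Aldh3a1 lay higher in every library with berberine. With edgeR's quasi-likelihood test, 0 of the 6 members tested reached an adjusted p below 0.05 and 2 an unadjusted p below 0.05. DESeq2 passed 2 and limma-voom 0. Over all 20101 genes tested with edgeR, 0.0746% passed (0.0597% higher and 0.0149% lower with berberine) and 15.6% had an unadjusted p below 0.05 (9.48% higher and 6.08% lower). DESeq2 passed 6.48% of its genes, 4.65% higher and 1.83% lower. The median log2 fold change of the 6 members was 0.29 and that of all genes tested 0.0051. The groups did not overlap for Ahrr and Aldh3a1, both higher in 5-Fu+BBR, and 12.3% of all genes tested lay apart in that direction, 9.68% in the other.

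**Figure D1:**
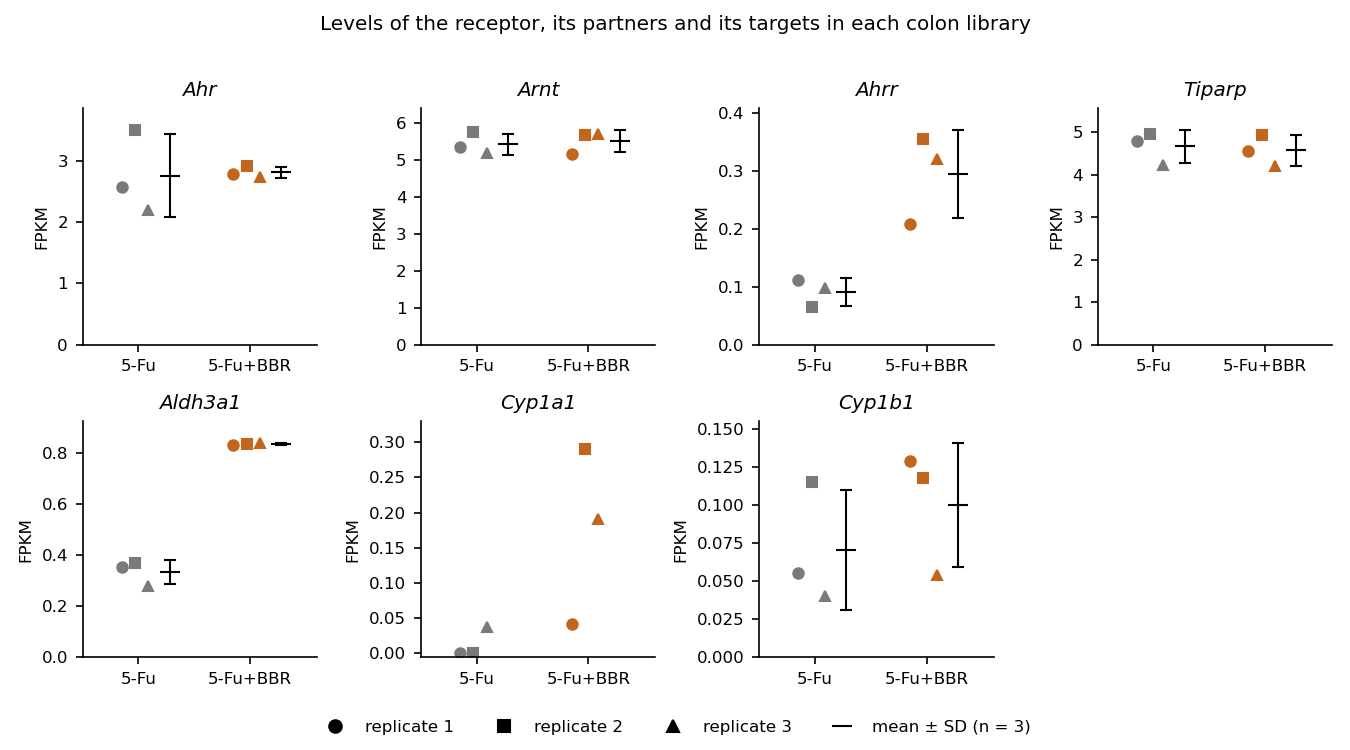
FPKM of the 7 genes in each library (circle, square and triangle for replicates 1 to 3; grey, 5-Fu; orange, 5-Fu+BBR), with the mean ± SD beside them except for Cyp1a1, which is at 0 in 2 libraries. All 3 orange points lie well above all grey ones for Ahrr and Aldh3a1, and the groups overlap for Ahr, Arnt, Tiparp and Cyp1b1. For Cyp1a1 the lowest orange point (0.0422 FPKM) is level with the highest grey one (0.0374 FPKM).

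Ahr (ENSMUSG00000019256, chromosome 12, 35497974 to 35535038 of GRCm38, minus strand) encodes the ligand-binding receptor. It was at 2.57, 3.50 and 2.19 FPKM in 5-Fu replicates 1 to 3 and at 2.79, 2.91 and 2.73 FPKM in 5-Fu+BBR replicates 1 to 3. The libraries with berberine lay close together and inside the range of 5-Fu, whose replicate 2 was the highest of all. The log2 fold change of Ahr was 0.04 ± 0.15 (edgeR adjusted p = 0.933), with a 95% interval of -0.32 to 0.39. Its direction turned when 5-Fu replicate 1 (-0.01) or 5-Fu replicate 3 (-0.05) was left out. The same order of the 5-Fu libraries was seen in 8 fibroblast markers. These summed to 124, 261 and 61.5 FPKM in 5-Fu replicates 1 to 3 and to 221, 201 and 175 FPKM in 5-Fu+BBR replicates 1 to 3. It was also the order in 5-Fu of endothelial (12.7, 21.5 and 9.56 FPKM), adipocyte (6.88, 14.4 and 5.77 FPKM) and squamous epithelial markers (20.7, 22.3 and 19.5 FPKM). None of these sums had the order of Ahr in 5-Fu+BBR in FPKM, where its values were close. In CPM Ahr was at 21.2, 20.7 and 19.8 in 5-Fu+BBR replicates 1 to 3. The FPKM sums of fibroblast, endothelial and squamous epithelial markers fell in that order too, and those of adipocyte markers did not. Whether any of these cell types set the spread of Ahr was not tested.

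Arnt (ENSMUSG00000015522, chromosome 3, 95434388 to 95497237, plus strand) encodes the partner that the receptor shares with the hypoxia-inducible factors. Its levels were 5.35, 5.75 and 5.18 FPKM in 5-Fu and 5.17, 5.68 and 5.70 FPKM in 5-Fu+BBR. The values interleave, and the gene varied little within each group (coefficients of variation of 5.41% and 5.51%). The log2 fold change was 0.02 ± 0.09 (edgeR adjusted p = 0.942, 95% interval -0.19 to 0.23). At the 95% level the interval leaves room for a level between 0.879 and 1.17 times that of 5-Fu.

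Ahrr (ENSMUSG00000021575, chromosome 13, 74211118 to 74292331, minus strand) encodes a repressor that resembles the receptor, competes with it for ARNT and for its DNA elements, and is itself induced by the receptor. Ahrr was at 0.111, 0.0649 and 0.0975 FPKM in 5-Fu and at 0.209, 0.355 and 0.320 FPKM in 5-Fu+BBR. The lowest library with berberine, replicate 1, stood well above the highest library without it, although the gene is scarce in this tissue. In fragments, the groups held about 44 and 139 for Ahrr. The fold change was 3.16 (95% interval 1.81 to 5.54), a log2 value of 1.66 ± 0.35. Its adjusted p was 0.118 by edgeR and 0.00105 by DESeq2. It ranked at place 241 by p among the genes tested. With 5-Fu+BBR replicate 1 alone against 5-Fu, the log2 fold change of Ahrr was 1.22 ± 0.54 (edgeR adjusted p = 0.808).

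Aldh3a1 (ENSMUSG00000019102, chromosome 11, 61207537 to 61218421, plus strand) encodes an aldehyde dehydrogenase of the classical set of receptor-induced enzymes, best known from the cornea and from dioxin-treated liver cells. Aldh3a1 was at 0.354, 0.368 and 0.279 FPKM in 5-Fu and at 0.832, 0.835 and 0.841 FPKM in 5-Fu+BBR. The libraries with berberine were almost equal, including replicate 1, in which kidney markers were low. Their coefficient of variation, 0.513%, is far below what about 82 fragments in 3 libraries would give by counting alone, so this closeness is no measure of the error. The fold change of Aldh3a1 was 2.46 (95% interval 1.54 to 3.94), a log2 value of 1.298 ± 0.30. Its adjusted p was 0.131 by edgeR and 0.00585 by DESeq2. For 5-Fu+BBR replicate 1 alone against 5-Fu, the log2 fold change of Aldh3a1 was 1.33 ± 0.49. In 6 of 6 libraries Aldh3a1 stood above Ahrr per transcript length.

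Tiparp (ENSMUSG00000034640, chromosome 3, 65528410 to 65555518, plus strand) encodes a mono-ADP-ribosyltransferase that is induced by the receptor and marks it for loss. It was at 4.81, 4.97 and 4.23 FPKM in 5-Fu and at 4.57, 4.94 and 4.22 FPKM in 5-Fu+BBR. The groups cover the same range, in contrast to Ahrr, which is also a feedback gene of the receptor. The log2 fold change of Tiparp was -0.03 ± 0.12 (edgeR adjusted p = 0.929, 95% interval -0.30 to 0.24), and the sign turned to 0.03 without 5-Fu+BBR replicate 3. The difference between the fold changes of Tiparp and Ahrr was not tested.

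Cyp1a1 (ENSMUSG00000032315, chromosome 9, 57687928 to 57703824, plus strand) encodes the monooxygenase whose induction is the usual readout of the active receptor. Its deposited counts were 0, 0 and 7 in 5-Fu and 9, 52 and 35 in 5-Fu+BBR, or 0, 0 and 0.0374 FPKM against 0.0422, 0.291 and 0.191 FPKM. Replicate 1 with berberine was thus level with 5-Fu replicate 3, and the higher values came from the 2 libraries that were also high in kidney markers, whose part was not tested. These counts stand for about 2 fragments in 5-Fu and 24 in 5-Fu+BBR, a ratio of 12.3 with an exact 95% interval of 3.04 to 107, which covers counting error only and not the spread between libraries. The 0 counts in 5-Fu replicates 1 and 2 allow a level of up to 0.216 and 0.179 CPM, taking 3 fragments as the limit. Cyp1a1 fell below the filter on low counts. With no filter its adjusted p was 0.32 by edgeR. Cyp1a1 has a similar neighbour, Cyp1a2, and reads could be split between the copies.

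Cyp1b1 (ENSMUSG00000024087, chromosome 17, 79701537 to 79715061, minus strand) encodes a related monooxygenase of stromal and steroid-making cells. It was at 0.0556, 0.115 and 0.0403 FPKM in 5-Fu and at 0.129, 0.118 and 0.0538 FPKM in 5-Fu+BBR. The groups overlap, and 5-Fu replicate 2, the library richest in fibroblast markers, was again the highest of the 5-Fu libraries. The log2 fold change of Cyp1b1 was 0.53 ± 0.54 (edgeR adjusted p = 0.684). Its 95% interval, -0.70 to 1.77, includes both 0 and the value seen for Aldh3a1.

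**Figure D2:**
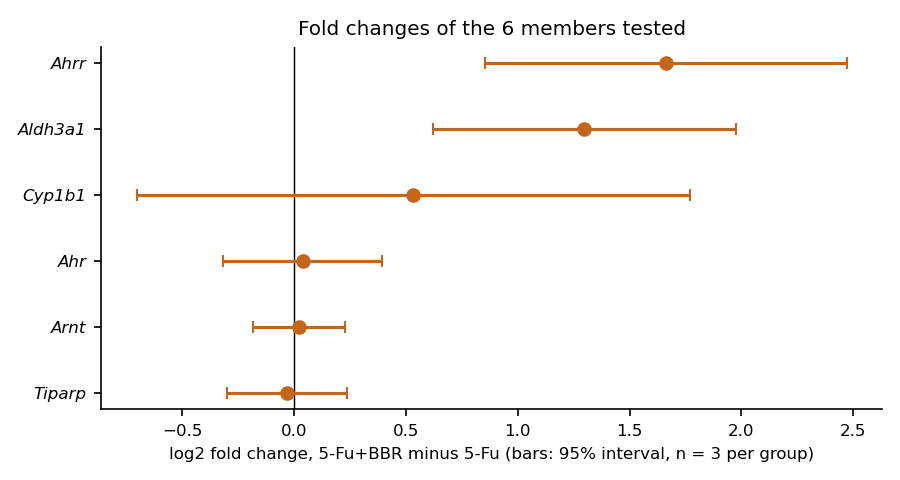
Log2 fold change (5-Fu+BBR minus 5-Fu, horizontal axis) of the 6 genes tested, with 95% intervals from edgeR's quasi-likelihood fit of 3 libraries per group. The intervals of Ahrr (0.85 to 2.47) and Aldh3a1 (0.62 to 1.98) lie to the right of 0 without adjustment for the number of genes tested, and the other 4 include 0.

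In order of FPKM over the 6 libraries the members ran from Arnt (5.47) over Tiparp (4.62), Ahr (2.78), Aldh3a1 (0.585) and Ahrr (0.193) to Cyp1a1 (0.0936) and Cyp1b1 (0.0853). Each of the first 4 steps down to Ahrr kept its order in 6 of 6 libraries. Cyp1a1 and Cyp1b1 were not separated: Cyp1a1 was the higher of the pair in 0 of 3 libraries of 5-Fu and in 2 of 3 of 5-Fu+BBR. The receptor complex and Tiparp were thus the well-expressed genes of the set, and the genes that stood apart between the groups were scarce.

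Promoter sequences were found for 5 of the 7 members in RefSeq (GRCm38.p6) and were searched for the receptor's core element, GCGTG, on both strands. Ahrr, whose groups lay apart, Tiparp, whose groups overlapped, and Cyp1a1, the usual readout gene, are shown from 250 bases before to 50 after the start of the gene, 5′ to 3′ on the strand of the gene. Capitals mark GCGTG, or CACGC where it lies on the other strand. The windows are chr13:74292282-74292581 on the minus strand for Ahrr, chr9:57697363-57697662 on the plus strand for Cyp1a1 and chr3:65528197-65528496 on the plus strand for Tiparp.
Ahrr: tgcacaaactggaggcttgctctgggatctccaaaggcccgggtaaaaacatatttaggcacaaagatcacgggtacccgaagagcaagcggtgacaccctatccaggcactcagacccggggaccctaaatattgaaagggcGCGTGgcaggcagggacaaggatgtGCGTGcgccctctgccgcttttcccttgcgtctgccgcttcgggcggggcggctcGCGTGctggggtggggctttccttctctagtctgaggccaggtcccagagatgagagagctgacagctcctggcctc
Cyp1a1: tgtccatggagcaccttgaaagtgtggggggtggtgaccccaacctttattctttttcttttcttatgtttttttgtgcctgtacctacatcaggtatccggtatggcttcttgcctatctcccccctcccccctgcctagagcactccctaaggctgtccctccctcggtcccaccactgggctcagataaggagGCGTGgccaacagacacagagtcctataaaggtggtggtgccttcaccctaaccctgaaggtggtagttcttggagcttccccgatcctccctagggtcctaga
Tiparp: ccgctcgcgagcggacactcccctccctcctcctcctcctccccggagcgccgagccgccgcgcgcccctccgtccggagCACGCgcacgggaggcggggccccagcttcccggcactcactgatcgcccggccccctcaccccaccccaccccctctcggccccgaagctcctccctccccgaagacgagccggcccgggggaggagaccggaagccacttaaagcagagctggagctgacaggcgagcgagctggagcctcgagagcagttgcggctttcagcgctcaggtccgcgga
The Ahrr window holds 3 copies, 107, 82 and 27 bases before the start, all on the strand of the gene. Of the 32851 promoter windows in the table, 3.91% hold at least 3 copies and 32.4% at least 1. Cyp1a1 and Tiparp hold 1 copy each, 54 and 170 bases before the start, and so do Arnt and Cyp1b1. The longer form TNGCGTG, which contains the core, was found in 1 of the 5 windows, that of Ahrr, and in 5.07% of all windows. A match of these letters is not evidence of binding. Bases further than 250 before or 50 after the start were not searched, so these counts do not rank the genes by their elements. The Cyp1a1 row of the deposited table rests on 1 transcript that starts 9685 bases upstream of the RefSeq start used here.

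Markers of other cell types moved with the same groups. The 8 leukocyte markers, such as Ptprc, which encodes CD45, and the B cell gene Cd79a, summed to 19.2, 49.4 and 27.0 FPKM in 5-Fu and to 63.9, 89.0 and 75.2 FPKM in 5-Fu+BBR, and in CPM 7 of the 8 lay higher in every library with berberine. Itgam overlapped, and in FPKM Cd3e overlapped as well (0.634 FPKM in 5-Fu replicate 2 and 0.632 FPKM in 5-Fu+BBR replicate 1). The 8 smooth muscle markers summed to between 744 and 991 FPKM in 5-Fu and between 1360 and 1650 FPKM in 5-Fu+BBR, with 7 of 8 higher in every library. The 8 adipocyte markers summed to between 5.77 and 14.4 FPKM against 41.9 to 84.3 FPKM, and all 8 were higher in every library. Adipoq, Plin1 and Retn were listed at 0 in 5-Fu replicates 1 and 3, and Lep in all 3 libraries of 5-Fu. In bulk tissue, more cells of a type and more RNA per cell cannot be told apart.

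The kidney sums given above also lay higher in every library with berberine, by little in replicate 1 (21.9 FPKM against at most 18.9 FPKM in 5-Fu). In CPM only 2 of the 8 kidney markers, Umod and Cyp2e1, were higher in every library. Cyp2e1 was at 6.51 FPKM in 5-Fu+BBR replicate 1, against 1.57, 2.37 and 0.974 FPKM in 5-Fu. The higher kidney sum of that replicate rested on Cyp2e1, and without this gene it did not lie above 5-Fu. Kap alone gave 133 and 127 FPKM of the sums in 5-Fu+BBR replicates 2 and 3. Of the 8 markers 7 had positive log2 fold changes, with Nphs1 the exception (-0.51 ± 0.20). The sums of the other 5 lists overlapped between the groups. The 12 epithelial markers summed to between 5450 and 6290 FPKM in 5-Fu and between 5650 and 6120 FPKM in 5-Fu+BBR. Squamous epithelium, which is rich in Aldh3a1 in some organs, was low, with 11 of 12 markers found. These summed to between 19.5 and 22.3 FPKM against 12.3 to 23.7 FPKM, with Sprr1a the highest in every library (9.6 to 20.7 FPKM). The basal cell gene Krt5 stayed at or under 0.201 FPKM. Krt13 and Krt14 reached 5.97 and 3.03 FPKM in 5-Fu replicate 2 and were at most 0.952 and 0.821 FPKM elsewhere. Endothelial markers summed to between 9.56 and 21.5 FPKM against 13.4 to 17.6 FPKM, and hepatocyte markers to between 42.6 and 55.7 FPKM against 47.4 to 60.3 FPKM.

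Set against epithelial marker RNA, Ahrr and Aldh3a1 kept the same separation. Per 1000 FPKM of epithelial markers, Aldh3a1 was at 0.0607, 0.0674 and 0.0444 FPKM in 5-Fu and at 0.136, 0.148 and 0.139 FPKM in 5-Fu+BBR. Against smooth muscle markers both genes also stayed apart, with ratios of the group means of 1.81 for Ahrr and 1.42 for Aldh3a1. The same held against endothelial, squamous epithelial and hepatocyte markers. There the ratios were 2.71, 4.26 and 2.96 for Ahrr and 2.24, 3.23 and 2.29 for Aldh3a1. Against leukocyte markers they did not. Per 1000 FPKM of leukocyte markers, Ahrr was at 5.77, 1.31 and 3.61 FPKM in 5-Fu and at 3.26, 3.99 and 4.25 FPKM in 5-Fu+BBR, a ratio of the means of 1.08. Aldh3a1 was at 18.5, 7.44 and 10.3 FPKM against 13.0, 9.38 and 11.2 FPKM, a ratio of 0.927. Both genes also overlapped between the groups when set against fibroblast or kidney markers, and against adipocyte markers their ratios were 0.418, with overlap, and 0.374, without. The part of leukocytes, fat or other cells in the levels of Ahrr and Aldh3a1 was not tested.

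**Figure D3:**
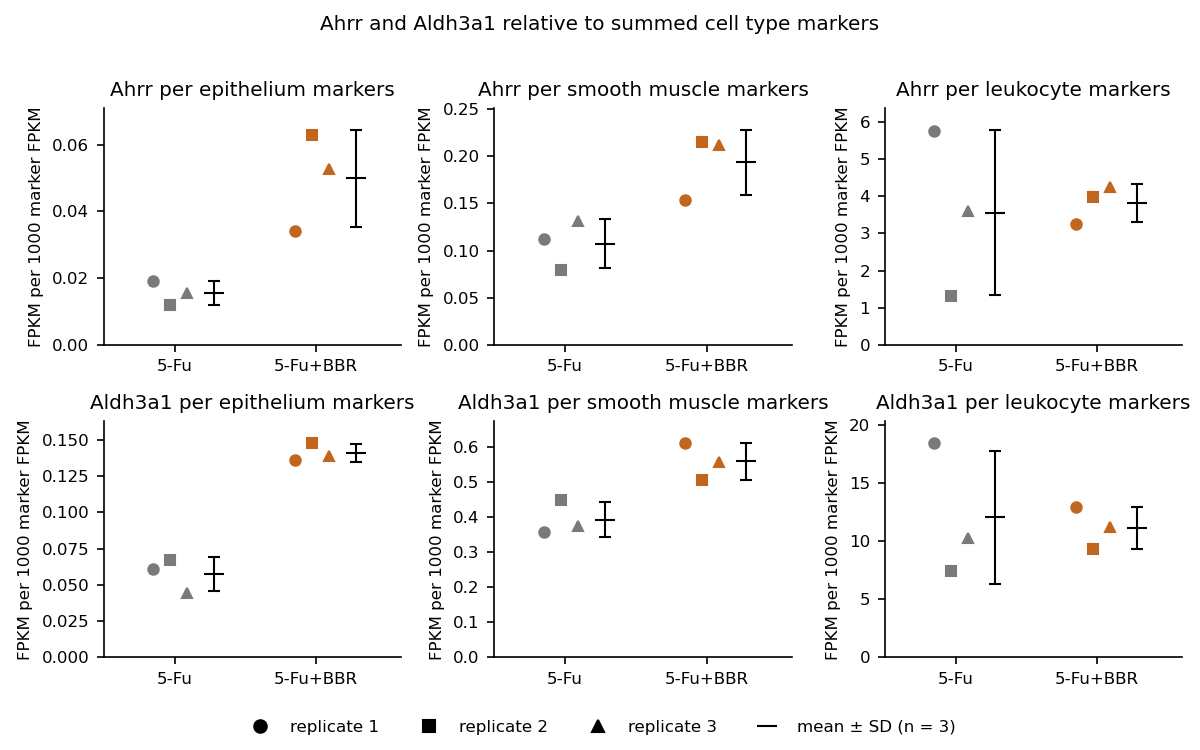
Ahrr (top) and Aldh3a1 (bottom) in each library as FPKM per 1000 FPKM of the summed markers of epithelium, smooth muscle or leukocytes, with the mean ± SD of 3 libraries. The groups lie apart against epithelial and smooth muscle markers and overlap against leukocyte markers, where 5-Fu replicate 1 is the highest of the 6.

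Other genes of the pathway were read from 6 lists of 75 genes in all, of which 70 were tested. Of these, 0 passed by edgeR and by limma-voom. An unadjusted p under 0.05 by edgeR was found for 16 (22.9%, 9 higher and 7 lower), against 15.6% of all genes tested. DESeq2 passed 10 of the 70 (14.3%, 5 higher and 5 lower), against 6.48% of the 18922 genes to which it gave an adjusted p. It gave none to Cyp1a2 and Ugt1a6b, which are counted in the 70. The groups did not overlap for 20 of the 70 (28.6%), against 21.9% of all genes tested.

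The machinery around the receptor did not separate the groups. Of 12 chaperones and coactivators, 6 had positive and 6 negative log2 fold changes, with a median of 0.02, and the groups overlapped for all 12 in CPM, though in FPKM Stub1 lay lower and Ncoa1 higher with berberine. Hsp90ab1, the HSP90 form that holds the resting receptor, was the most abundant at 279 to 363 FPKM in 5-Fu and 297 to 314 FPKM in 5-Fu+BBR. The genes with the smallest p were Ptges3, the p23 cochaperone (log2 fold change -0.27 ± 0.14), Stub1, a chaperone-linked ubiquitin ligase (-0.22 ± 0.12), the coactivator Ncoa1 (0.14 ± 0.10) and the acetyltransferase Ep300 (-0.13 ± 0.11), with adjusted p values from 0.393 to 0.621 by edgeR.

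Further enzymes that the receptor can induce gave mixed values. Among 12 such genes the median log2 fold change was 0.13, and the groups lay apart for Gsta1 and Aldh1a3, which were both lower with berberine. That is 2 of 12, where 9.68% of all genes tested lay apart in that direction and DESeq2 passed 1.83% of its genes as lower. Gsta1, a glutathione transferase of a family of similar copies, was at 26.1, 17.1 and 19.4 FPKM against 11.5, 10.6 and 12 FPKM (log2 fold change -0.88 ± 0.19, adjusted p = 0.119 by edgeR; called by DESeq2). Aldh1a3, a retinal dehydrogenase, was at 23.4, 27.0 and 8.43 FPKM against 7.21, 2.29 and 2.10 FPKM (log2 fold change -2.29 ± 0.67, edgeR adjusted p = 0.219; called by DESeq2). The epithelial cytochrome Cyp2s1 had a log2 fold change of 0.49 ± 0.22 and the monooxygenase Fmo2 one of 0.13 ± 0.14. Nqo1, the quinone reductase that serves with Cyp1a1 as a standard readout, was at 5.76, 7.73 and 4.02 FPKM in 5-Fu and at 6.20, 6.65 and 7.02 FPKM in 5-Fu+BBR, an overlap. Cyp1a2 stayed at or under 0.141 FPKM in every library.

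Genes that turn tryptophan into kynurenines, indoles or serotonin, some of which are ligands of the receptor, were the list with the largest median, 0.89 over 12 genes. Of them 10 had positive log2 fold changes, 0 passed by edgeR, 4 passed by DESeq2, and 6, all higher, had an unadjusted p under 0.05, where 9.48% of all genes tested were higher at that level. The same 6 did not overlap between the groups, where 12.3% of all genes tested lay apart in that direction and DESeq2 passed 4.65% of its genes as higher. Il4i1, a secreted oxidase of antigen-presenting cells that converts tryptophan to indole-3-pyruvate, was at 0.0667, 0.150 and 0.0709 FPKM in 5-Fu and at 0.367, 0.846 and 0.517 FPKM in 5-Fu+BBR. Even the lowest library with berberine was well above the highest without it (log2 fold change 2.49 ± 0.43, adjusted p = 0.0911 by edgeR). Kmo, which hydroxylates kynurenine, was at 0.200, 0.504 and 0.383 FPKM against 1.26, 1.73 and 1.35 FPKM (log2 fold change 1.98 ± 0.34, edgeR adjusted p = 0.091).

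Enzymes further down the kynurenine route had positive values too. Kynu, the kynureninase, had a log2 fold change of 1.24 ± 0.40 (edgeR adjusted p = 0.214), and Haao, which forms the precursor of quinolinate, one of 1.84 ± 0.55 (edgeR adjusted p = 0.199). Aadat, a kynurenine aminotransferase, was at 0.107, 0.0833 and 0.0381 FPKM in 5-Fu and at 0.110, 0.436 and 0.383 FPKM in 5-Fu+BBR. As with Cyp1a1, the library of 5-Fu+BBR that was low in kidney markers was level with 5-Fu. The part of kidney transcripts in the values of this list was not tested. Kmo, Haao and Kynu in that library were at 1.26, 1.04 and 0.357 FPKM, above every 5-Fu library. Tph1, the serotonin-forming hydroxylase of enterochromaffin and mast cells, was at 2.74, 1.59 and 2.44 FPKM against 3.36, 4.29 and 4.54 FPKM (log2 fold change 0.82 ± 0.23, edgeR adjusted p = 0.178). Ido1, which opens the indole ring and is induced by interferon gamma, was at 25.9, 18.6 and 8.96 FPKM against 39.3, 42.7 and 20.7 FPKM. The groups of Ido1 overlapped. By group mean it was the most abundant gene of the list, but in 5-Fu replicate 3 Kyat1 was higher (15.2 FPKM). The leukocyte markers given above were higher in the same libraries, and their part in these values was not tested.

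**Figure D4:**
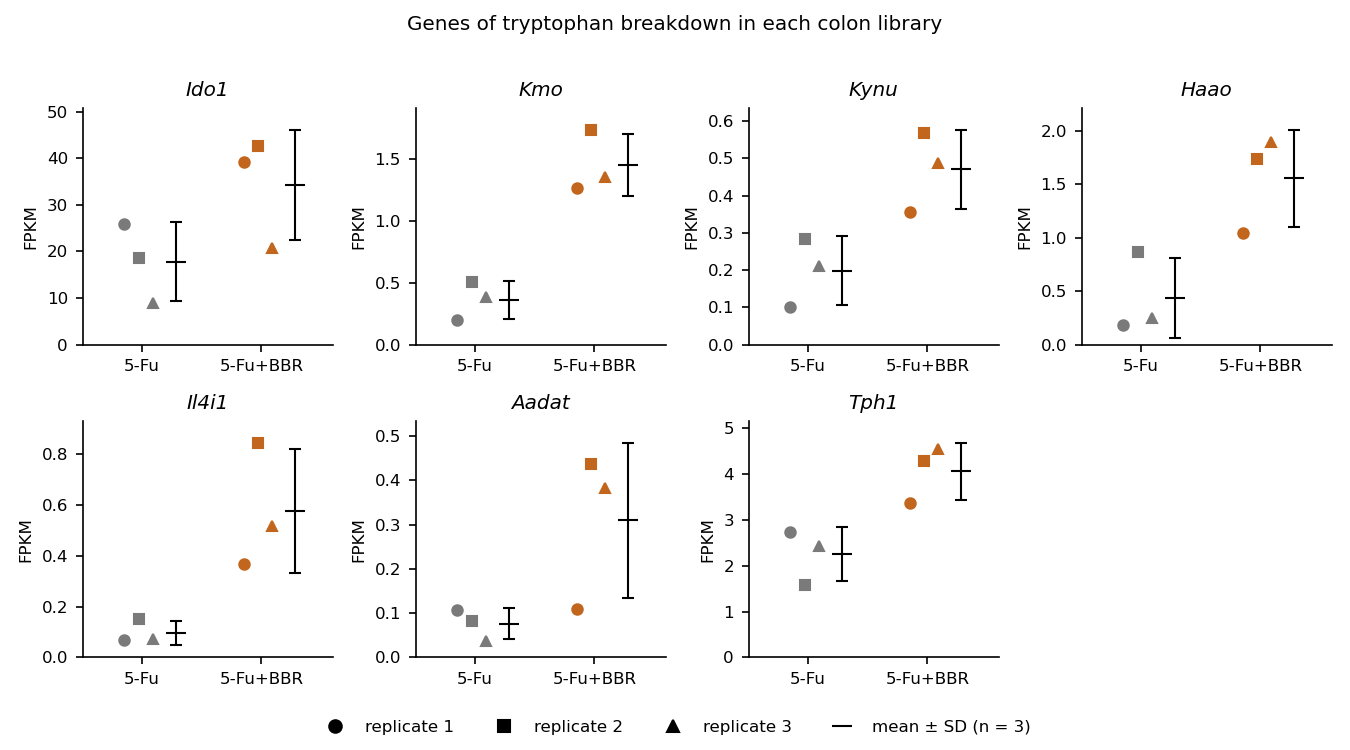
FPKM of 7 genes of tryptophan breakdown in each library (symbols for replicates 1 to 3, bars for the mean ± SD of 3 libraries; grey, 5-Fu; orange, 5-Fu+BBR). The genes shown are Ido1 and the 6 of 12 whose groups do not overlap, so they were chosen by their values. The orange points thus lie above the grey ones for all but Ido1, whose 5-Fu+BBR replicate 3 (20.7 FPKM) falls below 5-Fu replicate 1 (25.9 FPKM). Afmid, Ido2, Kyat1, Kyat3 and Tdo2 overlapped and are not shown (log2 fold changes -0.06, -0.27, 0.30, 0.28 and 0.40).

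Lymphocyte genes that depend on the receptor in the gut went both ways. Of 10 tested, 6 had positive and 4 negative log2 fold changes, with a median of 0.19. Ccr6, a chemokine receptor of B cells and type 3 lymphocytes (0.235, 1.46 and 0.660 FPKM against 2.20, 3.24 and 2.48 FPKM), had a log2 fold change of 1.75 ± 0.55 (edgeR adjusted p = 0.217; called by DESeq2). The colon-homing receptor Gpr15 was at 0.0582, 0.247 and 0.310 FPKM against 0.324, 1.17 and 0.830 FPKM (log2 fold change 1.85 ± 0.66, edgeR adjusted p = 0.249), with 5-Fu+BBR replicate 1 level with 5-Fu replicate 3. The receptor tyrosine kinase gene Kit had a log2 fold change of 0.32 ± 0.13 (edgeR adjusted p = 0.298). Il17f had a log2 fold change of -1.39 ± 0.69 (edgeR adjusted p = 0.378). Leukocyte markers were higher in the same libraries as Ccr6 and Gpr15, and their part was not tested.

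Il22, the barrier cytokine of type 3 innate lymphocytes and a gene that needs the receptor in those cells, had 53, 11 and 21 counts in 5-Fu and 8, 0 and 0 in 5-Fu+BBR. The 0 counts in 5-Fu+BBR replicates 2 and 3 allow a level of up to 0.217 and 0.216 CPM, above the 0.164 CPM of 5-Fu replicate 2. It was too scarce to be tested and stood for about 21 and 2 fragments, a ratio of 0.0972 with an exact 95% interval of 0.0111 to 0.398 for counting error only. It was named after its values were seen.

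Other genes of the bHLH-PAS family, to which Ahr, Arnt and Ahrr belong, had more negative than positive values. Of 12 tested, 8 had negative log2 fold changes and the median was -0.31. Hif3a (log2 fold change -1.02 ± 0.28), the clock genes Clock (-0.43 ± 0.12) and Arntl (-0.63 ± 0.19) and the hypoxia-inducible factor Hif1a (-0.32 ± 0.13) did not overlap between the groups in CPM, with adjusted p values of 0.176, 0.175, 0.199 and 0.289 by edgeR. These are 4 of 12, where 9.68% of all genes tested lay apart in that direction. Per3, another clock gene, lay apart in the other direction (log2 fold change 0.35 ± 0.16, edgeR adjusted p = 0.351). DESeq2 passed Hif3a and Clock. Hif1a, the partner of ARNT in hypoxia, was at 45.8, 41.5 and 32.4 FPKM in 5-Fu and at 31.7, 33.3 and 30.7 FPKM in 5-Fu+BBR, so in FPKM its groups overlapped.

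Among 12 targets of the hypoxia-inducible factors, 10 had negative log2 fold changes and the median was -0.24. The glycolytic gene Pgk1 was at 302, 266 and 238 FPKM against 183, 190 and 164 FPKM, apart in every library (log2 fold change -0.59 ± 0.13, adjusted p = 0.132 by edgeR; called by DESeq2). The log2 fold change was 0.44 ± 0.19 for P4ha1, a collagen prolyl hydroxylase, -0.56 ± 0.27 for the oxygen sensor Egln3 and -0.24 ± 0.11 for the kinase Pdk1, with adjusted p values from 0.325 to 0.363 by edgeR. Egln3 was at 54.1, 49.3 and 44.6 FPKM against 46.3, 22.4 and 30.8 FPKM, so 5-Fu+BBR replicate 1 lay inside the range of 5-Fu. Pdk1 lay apart in CPM and overlapped in FPKM. P4ha1 lay higher in every library with berberine in both measures. In CPM the groups thus lay apart for 1 of the 12 targets higher and 2 lower. Of all genes tested, 12.3% lay apart higher and 9.68% lower.

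**Figure D5:**
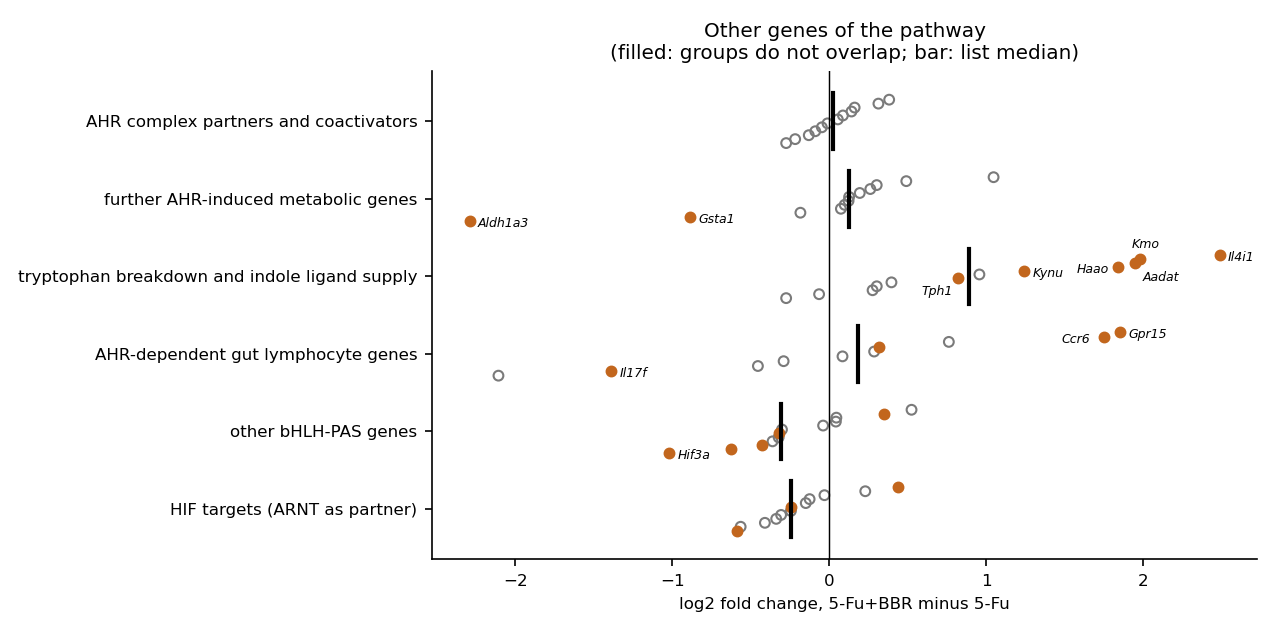
Log2 fold change (5-Fu+BBR minus 5-Fu, horizontal axis) of the tested genes of 6 lists around the receptor, 1 point per gene. Filled points are genes whose libraries do not overlap between the groups and black bars are list medians, which run from -0.31 for other bHLH-PAS genes to 0.89 for tryptophan breakdown.

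For the 3 members with a mean of at least 1 FPKM, the genes with the most similar pattern over the 6 libraries were sought among 11297 genes, by Pearson's r of log2 CPM. For Ahr they were Cd81, Igf1 and Cnpy4 (r of 0.989, 0.988 and 0.987). For Arnt they were Sepsecs, Klhl28 and Cd1d1 (r of 0.993, 0.992 and 0.990), and for Tiparp Pym1, Ccdc22 and Mob3c (r of 0.987, 0.985 and 0.983). Of the 11297 genes, 39 reached an r of 0.95 with Ahr, 13 with Arnt and 15 with Tiparp. The named genes were picked as the highest of so many over only 6 libraries, so their r values do not show a link.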

How the data were processed

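RNA of whole colon was measured in 6 libraries, 3 per group by the labels' treatment. Per the labels' protocols, polyadenylated RNA was made into strand-marked libraries with molecular identifiers and sequenced as read pairs. Per the submitters' processing notes, the tools were StringTie 1.3.4d, HISAT2 2.0.4, cutadapt 1.9, edgeR, UMI-tools and DESeq2 and the build was GRCm38, with no role or order given. The authors deposited 1 table with estimated counts, written as whole numbers, and FPKM for each library. Per library, 498 to 560 genes stood at 3 counts, 732 to 829 at 4 and 247 to 304 at 5, and 1 fragment was taken as 4 counts, which is approximate. A count test therefore sees less sampling noise in scarce genes than the fragments carry.

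Counts were used as deposited, filtered with filterByExpr (20101 of 30777 genes kept), scaled with TMM and tested in R 4.3.3 (edgeR 4.0.16, quasi-likelihood F test with robust dispersions), without covariates and with Benjamini-Hochberg adjustment over all genes tested. SE is the log2 fold change divided by the square root of F. Alternatives used limma 3.58.1 and DESeq2 1.42.0. CPM divide each count by the library size after TMM. The fit was tested on simulated data. Chi-square values per gene between libraries, in fragments, were 18.5 to 52.9, and each of the 6 libraries was counted as its own sample. The members and lists were chosen with earlier results of these data known. All 7 members were named, with up to 4 genes of the smallest p per list plus any that passed, and others where a sentence needed them, chosen after their values were seen. Marker ratios other than to epithelium were also added after seeing the data.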

Additional observations from a re-analysis of the deposited data

How the results depend on the processing

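Under 18 alternatives the count of members that passed stayed at 0 in 17, with DESeq2 the exception, which passed 2: Ahrr (log2 fold change 1.66) and Aldh3a1 (1.29). Ahrr ranged from 1.22 to 1.84 and Aldh3a1 from 1.24 to 1.33 on the log2 scale over the 16 alternatives that gave a value, and both were positive in all of these. The fits on FPKM gave none for them, since both lie under 1 FPKM. Directions of members near 0 turned: leaving out 1 library gave log2 fold changes of -0.0506 to 0.198 for Ahr and -0.0677 to 0.0342 for Tiparp, and 5-Fu+BBR replicate 1 alone gave -0.0325 for Arnt and 0.0085 for Tiparp. Cyp1a1, under the main filter, was kept by 5 fits, with adjusted p values of 0.111 to 0.524 by edgeR. Its log2 fold change was between 3.04 and 4.12 in 4 of them, and the fit without 5-Fu replicate 3 leaves 5-Fu at 0 counts, so its fold is no bound and is not given.

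Of all genes tested, 15 passed. The count was 77 with no filter, 1227 with DESeq2, 165 with limma-voom with sample weights, 144 at an adjusted p of 0.1, 0 to 159 without 1 library and 0 with 5-Fu+BBR replicate 1 alone. It was 0 without 5-Fu replicate 1 and without 5-Fu+BBR replicate 2. Of the genes of the 6 lists 0 passed, against 1 with no filter, 10 with DESeq2, 1 with sample weights, 2 at an adjusted p of 0.1 and 0 to 2 without 1 library. The cause of these differences was not tested.

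Replicate numbers are shared between the groups by label only. Same-numbered libraries had correlated deviations of 0.0579, 0.0242 and 0.123, which does not show pairing. With a replicate block 113 genes passed, 2 genes of the lists and 0 members. Scarce members limit the depth: about 44 and 34 fragments for Ahrr and Aldh3a1 in 5-Fu.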
